A study of Mus musculus with 3 samples.

Results

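The BNC1 peaks on mouse chromosome 10 were examined along the chromosome. Basonuclin 1 (BNC1) is a zinc finger protein found in germ cells and in the basal layer of stratified epithelia, and it is known to bind promoters of ribosomal RNA genes. Trimethylation of lysine 4 of histone H3 (H3K4me3) marks active and poised promoters, so its peaks tend to gather where genes are dense. In chromatin immunoprecipitation with sequencing (ChIP-seq), a peak is an interval with more sequenced tags than a peak caller expected from the background.

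The members were all rows of the BNC1 peak list on chromosome 10, which numbered 225 of 2578 BNC1 peaks. The chromosome was chosen by its BNC1 peak number relative to H3K4me3, so this ratio and each count derived from it are given as descriptions. The series held 3 samples, each made from the ovary of wild-type mice of the strain C57BL/6 J at 8 weeks of age. These were a BNC1 immunoprecipitation, an H3K4me3 immunoprecipitation and an input, for which no list was analysed here. Each was represented by 1 library, and the whole ovary mixes oocytes with somatic cells. No difference below therefore has a replicate check, and the intervals cover counting error only.

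Chromosome 10 held more BNC1 peaks per H3K4me3 peak than any other chromosome with at least 20 peaks in each list. There were 225 BNC1 peaks and 338 H3K4me3 peaks, or 66.6 BNC1 peaks per 100 H3K4me3 peaks (95% exact binomial interval 56.0 to 79.0). Over chromosomes 1 to 19 and X the ratio was 25.8 (24.7 to 26.9). On chromosome 8 it was 35.6 (31.0 to 40.8), from 286 BNC1 and 803 H3K4me3 peaks. On chromosome 7 it was 11.1 (7.65 to 15.7), from 36 and 324 peaks. On chromosome 12 it was 10.8 (8.22 to 13.9), from 66 and 613 peaks.

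Both lists contributed to the position of chromosome 10. Its BNC1 density up to the last listed peak was 1.74 peaks per Mb, which is 1.79 times that of all these chromosomes and the fourth highest of 19. Its H3K4me3 density was 2.61 peaks per Mb, or 0.692 times that of all, and stood in place 12 of 19. The ratio was thus 2.58 times the overall one. On chromosome 8, by contrast, both densities were high, at 2.24 times for BNC1 and 1.62 times for H3K4me3. Chromosomes 7 and 10 had almost the same number of H3K4me3 peaks (324 and 338), whereas chromosome 7 held 36 BNC1 peaks and chromosome 10 held 225.

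The lists were cut at different strengths. Strength is listed as 10 × −log10 of the p-value, and it started at 40.01 for BNC1 and at 50.01 for H3K4me3. At or past 50.01, 31 BNC1 peaks were left on chromosome 10, and all 338 H3K4me3 peaks. The ratio was then 9.17, against 3.87 over chromosomes 1 to 19 and X. This was still 2.37 times the overall ratio, but of the 19 chromosomes ranked, chromosome 9 stood higher, at 11.8. Chromosome 8 fell to 4.23, which is 1.09 times the overall ratio.

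To see whether the excess was even along the chromosome, peaks were counted by start in windows of 5 Mb, numbered from the chromosome start. All 26 windows of chromosome 10 held at least 1 BNC1 peak. From the first to the last window, the BNC1 counts were 1, 5, 15, 11, 18, 14, 8, 10, 10, 4, 6, 10, 8, 10, 8, 7, 9, 10, 13, 8, 6, 8, 6, 2, 7 and 11. The H3K4me3 counts in the same order were 0, 10, 12, 21, 7, 3, 6, 8, 21, 1, 2, 18, 19, 14, 3, 52, 30, 8, 18, 7, 0, 3, 7, 9, 11 and 48. The highest BNC1 counts lay between 10 and 30 Mb, and the highest H3K4me3 counts lay between 75 and 80 Mb and past 125 Mb. The low counts of the first window have a plain limit, since mouse assemblies begin each chromosome with an unsequenced stretch.

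**Figure D1:**
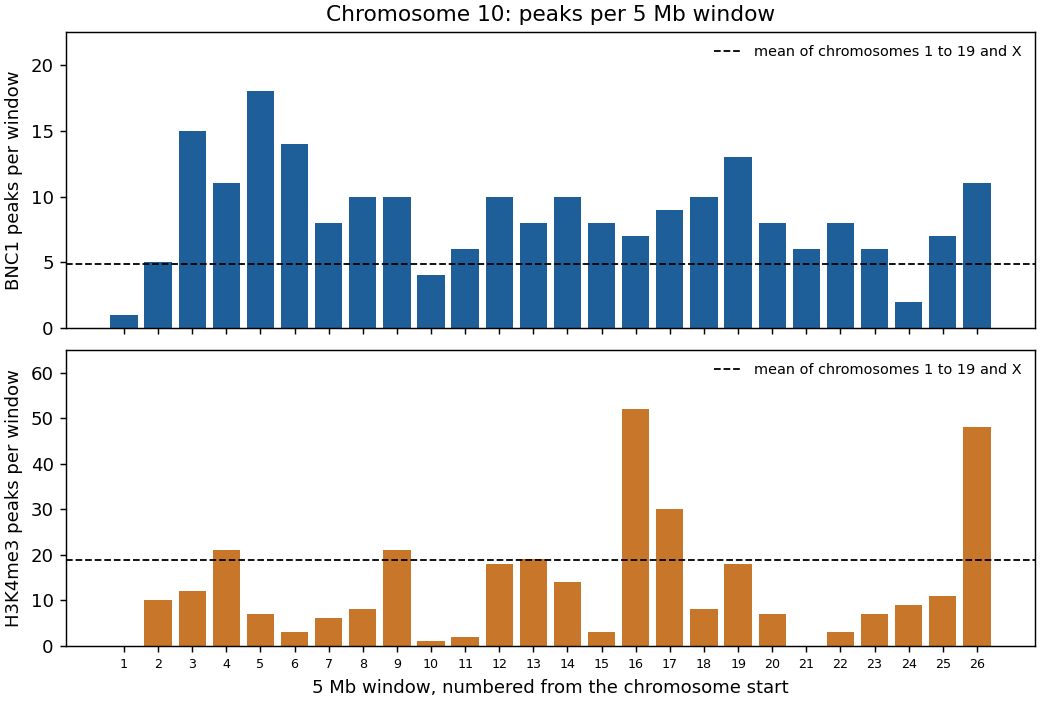
BNC1 peaks (upper bars) and H3K4me3 peaks (lower bars) per 5 Mb window of chromosome 10, with windows numbered from the chromosome start and a dashed line at the mean per window of chromosomes 1 to 19 and X (4.86 and 18.8 peaks). BNC1 bars pass their line in all but windows 1, 10 and 24, whereas H3K4me3 bars stay below theirs except in windows 4, 9, 13, 16, 17 and 26.

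Among the 24 windows that lay fully between the outermost listed peaks of chromosome 10, BNC1 counts ran from 2 to 18 with a median of 8. In 22 of the 24 the count was above 4.86, the mean per 5 Mb of chromosomes 1 to 19 and X. H3K4me3 counts in the same windows ran from 0 to 52 with a median of 8.5. In 19 of the 24 they were below the corresponding mean of 18.8. Of 485 complete windows on chromosomes 1 to 19 and X, 211 were above the BNC1 mean and 314 below the H3K4me3 mean. On chromosomes 8, 7 and 12, 24 of 25, 0 of 29 and 3 of 23 were above the BNC1 mean. Below the H3K4me3 mean were 12, 24 and 12 of them. A count below the H3K4me3 mean was thus not particular to chromosome 10. On chromosome 10, the variance of the counts divided by their mean was 1.45 for BNC1 and 10.7 for H3K4me3. BNC1 peaks were therefore spread more evenly over the windows than H3K4me3 peaks. The same quotients were 1.94 and 27.1 on chromosome 8, 1.15 and 7.62 on chromosome 7, and 1.27 and 33.5 on chromosome 12. Chromosome 10 was not alone in this: its BNC1 quotient was the fifth highest of 19 chromosomes, whose median was 1.32.

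The share of BNC1 among the peaks of both lists was then taken per window. Over chromosomes 1 to 19 and X it was 20.5%. On chromosome 10 this share was exceeded in 23 of 26 windows. Of all 504 windows with a peak on chromosomes 1 to 19 and X, 54.2% exceeded it. A window was called rich where its whole 95% exact binomial interval lay above 20.5%, and poor where the interval lay below. Chromosome 10 had 14 rich windows and 0 poor ones, against a background of 15.5% rich and 9.92% poor windows over all these chromosomes. Since the chromosome was chosen for its overall ratio, a number of rich windows above the background follows from the choice. The same holds in part for long runs of windows above the overall share. Where the rich windows lie was not part of the choice, but it is read from the same counts.

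Rich windows were found from 10 to 110 Mb. They were windows 3, 5 to 8, 10, 11, 14, 15 and 18 to 22. The 3 windows at or below the overall share were window 16 between 75 and 80 Mb (11.9%, interval 4.91 to 22.9%), window 24 between 115 and 120 Mb (18.2%, 2.28 to 51.8%) and the last window past 125 Mb (18.6%, 9.69 to 30.9%). Windows 16 and 26 had 7 and 11 BNC1 peaks, near or above the median of 8. Their H3K4me3 counts of 52 and 48 were the highest of the chromosome. Window 24 was the only complete window with as few as 2 BNC1 peaks.

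The windows above the overall share formed an uninterrupted run of 15, from the start of the chromosome to 75 Mb. It held 138 BNC1 peaks, or 61.3% of those on chromosome 10, and 145 H3K4me3 peaks. Another run of 7 windows, from 80 to 115 Mb, held 60 BNC1 peaks and 73 H3K4me3 peaks. The longest runs were 8 windows on chromosome 8 (from 30 to 70 Mb), 4 on chromosome 12 and 3 on chromosome 7. Over the 19 chromosomes ranked, the median longest run was 5 windows, and chromosome 10 had the longest. Chromosome 2 reached 13 windows and chromosome 16 reached 10. On chromosome 2 the ratio was 26.1 BNC1 peaks per 100 H3K4me3 peaks, and 5.41% of windows were rich. A long run was thus also found without a high ratio. The run of 15 includes window 1, which held 1 BNC1 peak and 0 H3K4me3 peaks. At the common strength of 50.01, chromosome 10 had 1 rich window and a longest run of 5, with 31 BNC1 peaks to fill the windows. With windows of 10 Mb, 9 of 13 were rich and all 13 were above the overall share. With windows of 2.5 Mb the longest run was 13 windows, or 32.5 Mb in place of 75 Mb. The length of the run thus depended on the window size. Shares of rich windows over all chromosomes were computed only for windows of 5 Mb and the full lists. Rich counts at the other settings therefore have no background.

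The excess of BNC1 was also expressed in peaks. The overall ratio applied to its 338 H3K4me3 peaks gives 137.8 fewer BNC1 peaks than the 225 listed. By window, the difference was positive in 23 and negative in 3. The largest surpluses were 16.2 peaks in window 5, 13.2 in window 6 and 11.9 in window 3. These 3 windows together made up 28.3% of the summed surplus of 145.9 peaks, and the 3 negative windows summed to -8.11. Without the 3 windows richest in BNC1, the ratio of chromosome 10 was 56.3 per 100 H3K4me3 peaks (46.6 to 67.9). The excess was thus not confined to a few segments at this window size. On chromosome 8 the surplus of 147.3 peaks in 16 windows stood against a deficit of -68.4 in 11 others. On chromosome 12 the deficit was -111.6 peaks in 15 windows, and on chromosome 7 it was -58.6 in 22.

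**Figure D2:**
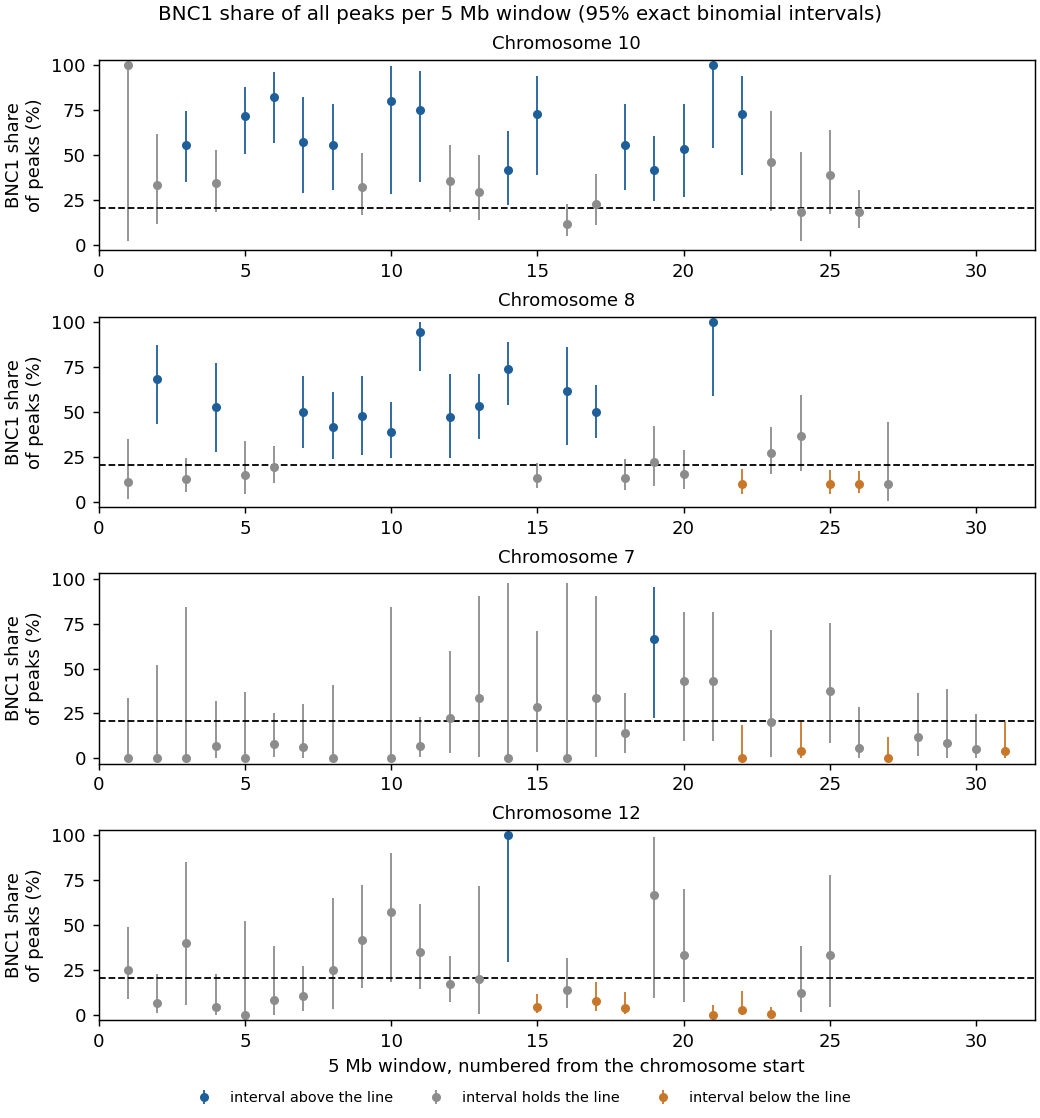
Percentage of BNC1 among the peaks of both lists in each 5 Mb window of chromosomes 10, 8, 7 and 12, with 95% exact binomial intervals and a dashed line at the 20.5% of chromosomes 1 to 19 and X. Chromosome 10 has 14 windows above the line by their whole interval and 0 below, chromosome 8 has 13 and 3, chromosome 7 has 1 and 4, and chromosome 12 has 1 and 6.

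The size of the excess nonetheless changed along chromosome 10. Per 100 H3K4me3 peaks there were 100 BNC1 peaks from 0 to 25 Mb (interval 66.2 to 151.1), 117.9 from 25 to 50 Mb (75.3 to 185.6) and 75 from 50 to 75 Mb (49.0 to 113.9). There were 40.9 from 75 to 100 Mb (28.5 to 57.9) and 51.3 beyond 100 Mb (34.1 to 76.0). The BNC1 counts were 50, 46, 42, 47 and 40, and the H3K4me3 counts were 50, 39, 56, 115 and 78. The last of the 5 stretches is longer, at 29.7 Mb up to the last listed peak. Per Mb, there were thus 2, 1.84, 1.68, 1.88 and 1.35 BNC1 peaks and 2, 1.56, 2.24, 4.6 and 2.63 H3K4me3 peaks. From 75 to 100 Mb the lower ratio went with a higher H3K4me3 density, while the BNC1 density was within the range of the stretches before it. Beyond 100 Mb it went with the lowest BNC1 density of the 5 and a somewhat higher H3K4me3 density than before 75 Mb. On chromosome 8 the corresponding ratios were 34.7, 53.8, 62.1, 36.4 and 18.1, and the BNC1 counts were 35, 63, 77, 55 and 56.

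The BNC1 and H3K4me3 counts of single windows were also set against each other. Over the 24 complete windows Pearson's r was 0.0748 and Spearman's rho was 0.323. Neighbouring windows of 1 library share that library, so these coefficients describe the lists only. On chromosomes 8, 7 and 12, r was -0.152, 0.0444 and -0.159 and rho was -0.0673, 0.183 and -0.0742, so both coefficients were highest on chromosome 10 among these 4 chromosomes. Window 21 of chromosome 10, between 100 and 105 Mb, held 6 BNC1 peaks and 0 H3K4me3 peaks.

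**Figure D3:**
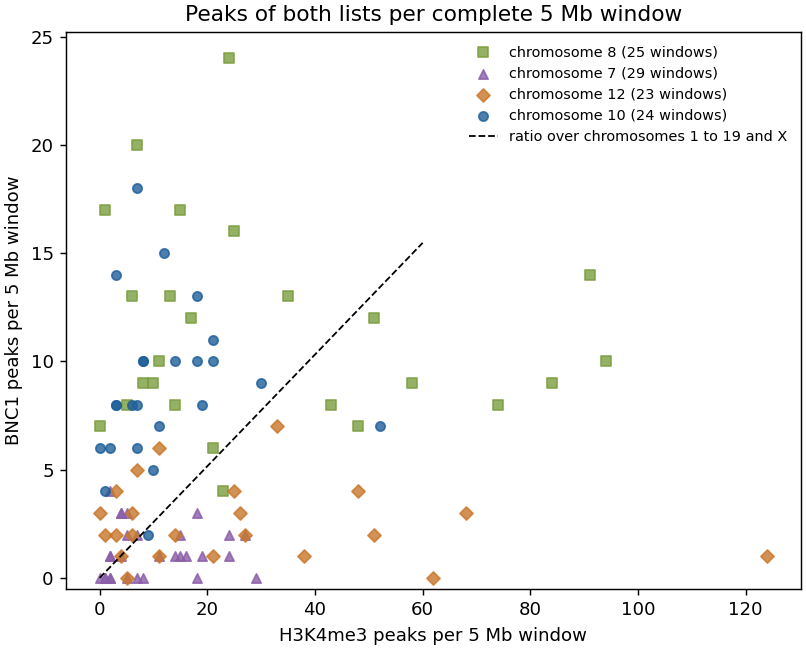
BNC1 peaks against H3K4me3 peaks in each complete 5 Mb window of chromosomes 10, 8, 7 and 12, with a dashed line at the overall ratio of 25.8 BNC1 peaks per 100 H3K4me3 peaks. Most chromosome 10 windows lie above the line at few H3K4me3 peaks, chromosome 8 windows lie on both sides of it, and 0 of 29 windows of chromosome 7 pass 4 BNC1 peaks.

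The windows with most BNC1 peaks were neighbours in part. Window 5, between 20 and 25 Mb, held 18 BNC1 peaks and 7 H3K4me3 peaks, a BNC1 share of 72.0% (interval 50.6 to 87.9%). Their median width was 153.5 bp and the median distance between neighbouring starts was 169.4 kb. Window 3, between 10 and 15 Mb, held 15 BNC1 peaks and 12 H3K4me3 peaks (55.6%, 35.3 to 74.5%), with a median spacing of 196.9 kb. Window 6, between 25 and 30 Mb, held 14 and 3 (82.4%, 56.6 to 96.2%), with a median spacing of 196.1 kb. It had the highest BNC1 share of the chromosome 10 windows with at least 10 peaks, but window 11 of chromosome 8 was higher, at 94.4% (72.7 to 99.9%) from 17 BNC1 peaks and 1 H3K4me3 peak. Windows 15 and 22 of chromosome 10 followed, with 8 BNC1 and 3 H3K4me3 peaks each (72.7%, 39.0 to 94.0%). The fullest window of chromosome 8, between 80 and 85 Mb, held 24 BNC1 peaks beside 24 H3K4me3 peaks. Chromosome 7 reached no more than 4 in a window (90 to 95 Mb), and chromosome 12 no more than 7 (55 to 60 Mb).

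BNC1 peaks of chromosome 10 were small. Their median width was 151 bp (interquartile range 143 to 157 bp), against 153 bp on the other chromosomes. Of the 225 peaks, 143 held exactly 8 tags, the lowest number in the list, which is 63.6% (exact interval 56.9 to 69.9%). A further 52 held 9 tags and 18 held 10 tags. On the other chromosomes 50.8% of BNC1 peaks sat at 8 tags (48.7 to 52.8%), on chromosome 8 52.4% (46.5 to 58.4%) and on chromosome 7 66.7% (49.0 to 81.4%). Chromosome 10 was the sixth highest of 19 in this share, whose range ran from 27.1% on chromosome 9 to 72.7% on chromosome 14. H3K4me3 peaks on chromosome 10 were larger, with medians of 34 tags and 314 bp.

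Tags per kb of peak width differed little along chromosome 10, but the cut of the list limits how far they can vary. Most peaks held 8 tags, and the widest of these, at 157 bp, had 50.96 tags per kb. Their strength of 40.14 was just past the lowest in the list, 40.01. The evenness is thus not a separate property of the chromosome. The median over its BNC1 peaks was 54.9 tags per kb (interquartile range 52.3 to 58.8), the second lowest of 19 chromosomes. Window medians ran from 52.3 to 57.9 tags per kb and median widths from 140 to 158 bp. The H3K4me3 peaks had a median of 111.0 tags per kb, with window medians from 102.5 to 116.2. In BNC1 tags per kb, chromosomes 8, 7 and 12 had medians of 56.4, 53.9 and 58.1. Of the windows with most BNC1 peaks, window 5 had the highest median of the chromosome at 57.9 tags per kb. Windows 3 and 6 were below the chromosome median, at 53.3 and 54.1.

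**Figure D4:**
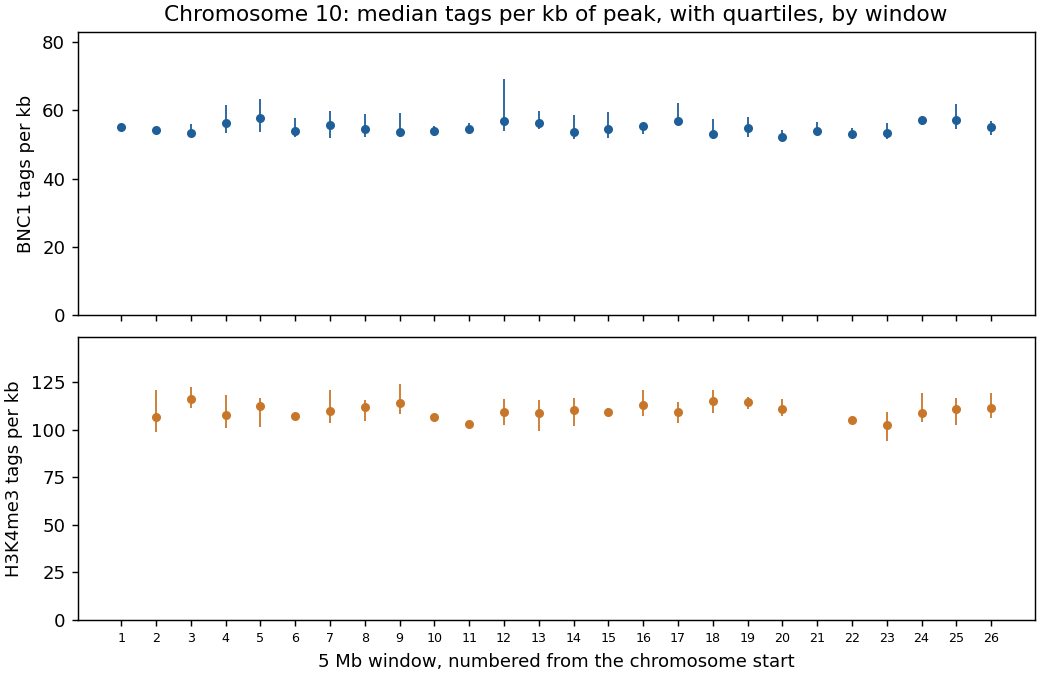
Median tags per kb of peak in each 5 Mb window of chromosome 10, with bars for the quartiles, for BNC1 (upper) and H3K4me3 (lower). Window medians stay between 52.3 and 57.9 for BNC1 and between 102.5 and 116.2 for H3K4me3. Most BNC1 peaks sit at the lowest tag number of the list, which limits the spread of their medians.

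A pair of neighbouring peaks stood apart from the rest of chromosome 10. They lay at chr10:21862105-21862191 and chr10:21862349-21862811, in coordinates of the lists, whose build is mm9. They held 46 and 182 tags, or 528.7 and 393.1 tags per kb. Their fold enrichments over the background of the caller were nevertheless only 3.59 and 4.88, the lower of which was the lowest on the chromosome. The nearest H3K4me3 peak was 352.8 kb away. Together they carried 228 of the 2135 BNC1 tags on chromosome 10, or 10.7%, and without them window 5 held 141 tags in place of 369. The other 223 peaks held 8 to 13 tags each. Such tag-dense BNC1 peaks were not particular to chromosome 10. The highest tags per kb were 661.8 on chromosome 12, 139.2 on chromosome 8 and 67.8 on chromosome 7.

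A background index was taken as tags per kb divided by fold enrichment. It is no direct measure of background, since the numerator of the listed fold enrichment is not given in the sources used here. The peaks from 12320665 and 27252349 both had 8 tags, 156 bp and a strength of 40.34. Their folds of 6.69 and 10.04 nonetheless gave indices of 7.67 and 5.11. The pair had indices of 147.3 and 80.6, against a median of 6.37 on chromosome 10 (interquartile range 5.79 to 7.03) and a highest value of 9.48 among the other 223 peaks. Median indices were 6.60 on chromosome 8, 6.17 on chromosome 7 and 6.56 on chromosome 12. The highest BNC1 indices on these 3 chromosomes were 23.8, 8.31 and 159.5. For H3K4me3, the median index was 13.8 on chromosome 10 and 13.7 on chromosome 7, below the 17.2 on chromosome 8 and the 17.4 on chromosome 12. Median H3K4me3 widths were 314 and 301 bp on chromosomes 10 and 7, and 413 and 456 bp on chromosomes 8 and 12. In its H3K4me3 peaks, chromosome 10 was thus nearer to chromosome 7, while in its number of BNC1 peaks it was nearer to chromosome 8. Whether background had a part in the peak numbers was not tested.

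Fold enrichments of BNC1 peaks on chromosome 10 fell on a few repeated values. The median was 8.37 (interquartile range 8.37 to 10.04). Exactly 8.37 was listed for 86 peaks, 10.04 for 61, 6.69 for 25, 11.71 for 15 and 13.39 for 3. These are the multiples 4 to 8 of 1.67364, within 0.006. They covered 190 of 225 peaks, or 84.4% (interval 79.0 to 88.9%), against 55.4% on the other chromosomes (53.4 to 57.5%). Chromosome 10 was the sixth highest of 19 in this share. Such multiples made up 51.0% of BNC1 peaks on chromosome 8 (45.1 to 57.0%), 83.3% on chromosome 7 (67.2 to 93.6%) and 65.2% on chromosome 12 (52.4 to 76.5%). Chromosomes 10 and 8, both rich in BNC1 peaks, were therefore unlike in this respect.

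By strength, the tag-rich pair led the chromosome, at 131.22 and 71.76. By fold enrichment other peaks led, and these held few tags. The 3 peaks of highest fold enrichment, each at 13.39, were chr10:89675183-89675328 with 9 tags, chr10:93134415-93134635 with 11 tags and chr10:122461731-122461824 with 8 tags. They lay 467.1, 30.0 and 36.3 kb from the nearest H3K4me3 peak. A fold of 11.71 was shared by 15 peaks, of which those of lowest start were chr10:7065921-7066159 with 13 tags and chr10:21110327-21110476 with 8 tags. The strengths of these 5 peaks ran from 41.62 to 62.55, so that not all of them passed 50.01. Apart from the pair above, most tags were found at the same peak from 7065921 and at chr10:38132370-38132594, each with 13, and at chr10:88079384-88079564 with 12. The starts of these 7 peaks were spread from 7 to 122 Mb. Another of the 15 peaks at 11.71, chr10:90544882-90544985 with 8 tags, lay 208 bp from an H3K4me3 peak.

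Neighbouring BNC1 peaks on chromosome 10 were far apart. The 224 distances between starts had a median of 357.5 kb (interquartile range 141.8 to 710.0 kb). Only 7 were under 10 kb, or 3.13%, and 45 were under 100 kb, or 20.1%. On the other chromosomes together these shares were 3.11% and 18.2%. Chromosome 9 weighs on these values, with 14.4% and 44%. The shares were 2.46% and 22.1% on chromosome 8, 0% and 2.86% on chromosome 7, and 0% and 3.08% on chromosome 12. H3K4me3 peaks of chromosome 10 had a median distance of 79.9 kb, with 80 of 337 under 10 kb, or 23.7%. The SD divided by the mean of the distances was 1.19 for BNC1 and 2.32 for H3K4me3. Median BNC1 distances were 282.3 kb on chromosome 8, 1222 kb on chromosome 12 and 2610 kb on chromosome 7, with quotients of 1.16, 1.12 and 1.04. Whether these quotients differ beyond chance was not tested.

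Even the densest places held few peaks. No stretch of 100 kb on chromosome 10 held more than 3 BNC1 peaks. There were 4 separate places that reached 3, starting at 22932319, 24492928, 62737354 and 90544882. Apart from the tag-rich pair, the closest neighbours were chr10:27448481-27448630 and chr10:27449923-27450070, whose starts were 1.44 kb apart. The widest distance was 4.97 Mb, from chr10:114688477-114688627 to chr10:119660946-119661096, and 12 H3K4me3 peaks lay in it. The next, of 3.31 Mb from 103597614 to 106907334, held 0 H3K4me3 peaks. Gaps in BNC1 were thus found both with and without H3K4me3 peaks.

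**Figure D5:**
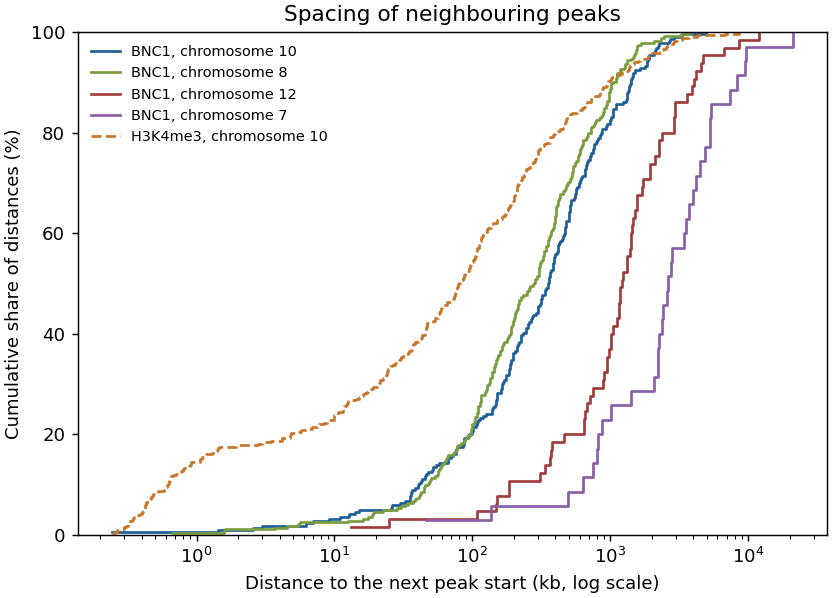
Cumulative percentage of distances between neighbouring peak starts, in kb on a log axis, for BNC1 peaks of chromosomes 10, 8, 12 and 7 (solid) and H3K4me3 peaks of chromosome 10 (dashed). The BNC1 curves of chromosomes 10 and 8 run close together with medians of 357.5 and 282.3 kb, and 3.13% of chromosome 10 BNC1 distances are under 10 kb against 23.7% for H3K4me3.

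A minority of the BNC1 peaks on chromosome 10 lay beside H3K4me3 peaks. The share that even placement would give was not computed. Neither avoidance nor attraction can therefore be read from these shares or from the overlaps below. Within 10 kb of an H3K4me3 peak there were 22 of 225, or 9.78% (interval 6.23 to 14.4%). On the other chromosomes the share was 9.94% (8.76 to 11.2%). On chromosomes 8, 7 and 12 it was 11.5% (8.08 to 15.8%), 5.56% (0.68 to 18.7%) and 13.6% (6.43 to 24.3%). The median distance from a BNC1 peak of chromosome 10 to the nearest H3K4me3 peak was 196.9 kb, against 158.5 kb on the other chromosomes. Over 1 Mb away were 23 peaks, or 10.2% (6.59 to 14.9%), against 15.2% on the other chromosomes (13.7 to 16.7%). At the strength of 50.01 the share within 10 kb was 22.6% of 31 peaks. An interval and the share on the other chromosomes are not given at that strength. No rise with strength is therefore read from it. Leaving the 22 peaks out, with all 338 H3K4me3 peaks kept, gave a ratio of 60.1 for chromosome 10. That value follows from the share of 9.78% and is no separate check.

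Direct overlap was found at 4 places, or 1.78% of the peaks (0.486 to 4.49%), which was near the 1.37% of the other chromosomes (0.94 to 1.93%). The peak chr10:11000105-11000259 had 8 tags at 6.69-fold enrichment, beside an H3K4me3 peak of 40 tags. The peak chr10:80122059-80122235 had 11 tags at 10.04-fold, with an H3K4me3 peak of 39 tags. The peak chr10:80599372-80599507 had 9 tags at 10.04-fold and lay inside an H3K4me3 peak from 80599300 to 80599609 with 29 tags. The peak chr10:93296694-93296840 had 8 tags at 8.06-fold and lay inside an H3K4me3 peak from 93296556 to 93296886 with 38 tags. Their fold enrichments reached neither the top 5 of the chromosome nor 11.71. The H3K4me3 partners held 29 to 40 tags, around the chromosome median of 34. Of the other BNC1 peaks within 10 kb, the closest was chr10:126726671-126726837 with 10 tags, at 59 bp from an H3K4me3 peak. Genes at these positions are not named, since the gene table at hand is of another build.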

How the data were processed

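ChIP-seq libraries of ovaries were made with antibodies against BNC1 and H3K4me3 and from input DNA. The labels describe sonication, whereas the methods of the study describe micrococcal nuclease digestion before sonication and another supplier of the BNC1 antibody, so the protocol is not certain. The submitters' processing notes name Bowtie2, MACS2 2.1.0 and mm9, while the columns are those of MACS version 1 tables. The control library and caller settings are not given in the sources used here. Per the file headers, tags are counts inside each peak without normalization. The deposited p-value is a score of 10 × −log10, fold enrichment was deposited as a linear ratio to the expected background, and the false discovery rate was deposited as a percent and not compared between windows. Total depth is unknown; the lists hold 45704 BNC1 and 617686 H3K4me3 tags in peaks.

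No peak was filtered out. The software was Python 3.11.15, pandas 2.3.3, numpy 2.4.6, scipy 1.17.1 and matplotlib 3.10.9. Windows of 5 Mb and edge distances were checked on simulated data. The simulation placed no BNC1 peaks in windows with few H3K4me3 peaks, such as window 6 with 3. The rich windows 6, 7, 10, 11, 15, 21 and 22 were thus outside the check. Planted rich windows had an expected count of more than 20 BNC1 peaks, while the fullest window of chromosome 10 held 18. Rich calls in windows with few H3K4me3 peaks, or at the BNC1 counts seen here, were therefore not checked. Chromosome ends were taken from the last listed peak, and windows without any peak were not called. Ranks cover 19 chromosomes, since X was left out for having fewer than 20 peaks in a list. Since each antibody has 1 library, no test was run and no p-value computed. Intervals are exact binomial (95%). Named peaks are the 5 of highest fold enrichment, the 5 with most tags (ties by lower start), those overlapping H3K4me3 by at least 1 bp, and the stretches of 100 kb with most peaks. Named windows are the 3 with most BNC1 peaks, the 3 of highest BNC1 share among those with at least 10 peaks, and the fullest window of each chromosome compared. The tag-rich pair, the stretches of 25 Mb, the repeated fold values and the closest and widest distances were chosen after their values were seen. The chromosomes and measures were chosen with earlier results of these data known. No genome sequence of the build was used here, so no peak sequence is printed.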

Additional observations from a re-analysis of the deposited data

How the results depend on the processing

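Of 45 recomputed values, 25 moved by less than their counting interval or, for counts, by less than 1.5 times, and 20 moved further. With peaks at or past the strength of 50.01 in both lists, BNC1 peaks per 100 H3K4me3 peaks were 9.17 on chromosome 10, 4.23 on 8, 1.23 on 7 and 1.31 on 12, from 31, 34, 4 and 8 BNC1 peaks. Chromosome 10 then had 1 rich window, a longest run of 5, a median spacing of 2428 kb, a median of 64.7 tags per kb and 22.6% of BNC1 peaks within 10 kb of H3K4me3. Merging peaks within 1 kb raised the ratio to 79.7 on chromosome 10, 45.7 on 8 and 14.4 on 12. A rise means that merging joined a larger share of the H3K4me3 peaks than of the BNC1 peaks. On chromosome 10, 23.7% of H3K4me3 and 3.13% of BNC1 start distances were under 10 kb. Covered bp in place of peak number gave 29.0. Windows of 10 Mb gave 9 rich windows of 13, and leaving out BNC1 peaks within 10 kb of H3K4me3 gave 1 poor window. Peaks with more than 8 tags had a median of 57.2 tags per kb. Summed tags over summed width gave 61.6, and 55.9 without the tag-rich pair, an alternative chosen after seeing the data. The share beside H3K4me3 was 4.89% within 1 kb and 37.3% within 100 kb. Shifting windows by 2.5 Mb or leaving chromosome 10 out of the reference share kept 14 rich windows and a run of 15. With windows of 2.5 Mb, 17 of 51 were rich. Runs were compared by their number of windows. The runs with windows of 2.5 and 10 Mb were thus among the 25, although their lengths of 32.5 and 130 Mb moved further from 75 Mb. The share of rich windows over all chromosomes was computed at the main setting only. Most members sit at the lowest tag number, and total depth is unknown.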
